A study of Mus musculus with 2 samples.

Results

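The nuclear RNA polymerases and the Mediator complex are represented here by 58 protein-coding mouse genes, chosen from the 43346 mouse genes of the deposited tables by symbol alone: Polr1, Polr2 or Polr3 followed by a letter, or Med followed by a number. Of these, 28 encode polymerase subunits or polymerase-bound proteins and 30 encode Mediator subunits. By complex, 3 belong to Pol I alone, 2 are shared by Pol I and Pol III, 5 are shared by all 3 polymerases, 8 belong to Pol II and 10 belong to Pol III. Pol I makes the precursor of ribosomal RNA, Pol II makes messenger RNA, and Pol III makes transfer RNA, 5S ribosomal RNA and other short RNAs. Mediator is the large coactivator that connects DNA-bound transcription factors to Pol II at promoters. Its head and middle modules contact the polymerase, its tail contacts activators, Med14 is the backbone, and a detachable kinase module holds Cdk8 or Cdk19 with cyclin C, Med12 and Med13. All of these complexes act in every nucleated cell, dividing blood progenitors included.

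The study sequenced total RNA of common myeloid progenitors (CMP), sorted bone marrow cells that give rise to granulocytes, monocytes, red cells and megakaryocytes. There was 1 group: CMP of male, adult C57BL/6J mice, 5 to 6 weeks old, with no treatment named in the labels. It held 2 libraries, replicate 1 and replicate 2, each made from 100 cells with RNA above 200 nucleotides retained. The labels call them biological replicates with separate biosamples but give both the same donor identifier. No contrast between conditions exists, so levels were described within CMP and the libraries were set against each other. With 1 value per library, no exact permutation test can give a p below 0.5.

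Replicate 1 held 28916263 expected counts and replicate 2 held 26426710, of which nuclear protein-coding genes held 43.9% and 45.3%. Pairs of values from here on are those of replicate 1 and replicate 2. The non-coding gene Gm42418 took 38.1% and 33.0%. Of the gate genes, Kit (98.1 and 93.0 TPM) and Cd34 (74.5 and 55.4 TPM) were present, Fcgr2b (2.48 and 9.59 TPM) and Fcgr3 (0.64 and 4.27 TPM) were low, and Ly6a and Il7r were at 0 in both libraries. Of markers of other cells, Alas2, Ppbp, Cd14, Cd79a, Ms4a1, Cd3e, Cd8a, Ncr1, Cdh5, Col1a1 and Lepr were at 0 in both. The summed level was 28.2 and 12.2 TPM for 4 erythroid markers, 55.2 and 107 TPM for 3 megakaryocyte markers, 25.4 and 18.5 TPM for 4 monocyte markers, and 20.0 and 17.3 TPM for 4 stroma and endothelium markers, the last being Pecam1 alone. It was 6.43 and 5.12 TPM for 4 neutrophil markers, 5.21 and 0.11 TPM for 4 B cell markers and 0.10 and 0.46 TPM for 4 T and NK cell markers. In pools of cells such as these, a difference in the number of cells that express a gene and a difference in RNA per cell cannot be told apart.

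The promoters of these genes were taken from RefSeq (GRCm38.p6) as the 250 bases upstream of the annotated start, and 48 of the 58 genes matched. Those without an entry include Polr2k, Polr2d, Polr2g, Polr3a, Polr3d, Med8, Med30, Med23 and Med24. Median GC content was 59.4% over the 48 genes and 55.2% over 17492 protein-coding genes, and the median number of CpG dinucleotides was 18 and 10. The GC box GGGCGG, searched on both strands like every motif here, occurred in 31 of the 48 genes (64.6%) and in 45.8% of all 17492 genes. A gene counted if any of its windows of this length held the motif, and the 48 genes had 54 windows. The ETS core CCGGAA occurred in 18 genes (37.5%), among them Polr1c, Polr2e, Polr3g, Polr3gl, Med14 and Med12, and in 17.0% of all genes. The word GCGCATGC, part of the site read by NRF1, was found in 5 genes (10.4%) and in 3.32% of all genes. AAGATGG, which YY1 recognises, was found in 4 genes (8.33%) and in 4.77% of all genes. TATAAA was present in 5 genes (10.4%, against 13.7% of all genes) and CACGTG in 3 (6.25% against 7.61%). CCAAT was present in 17 (35.4% against 39.5%) and the GATA core AGATAA in 5 (10.4% against 10.3%). A longer word can hold a shorter one, and a match is a description of the letters, not a bound site.

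The promoters of Polr2a, the catalytic subunit of Pol II and the deepest counted of the 58 genes, and of the paralogs Polr3g and Polr3gl, compared further on by transcript, are shown 5′ to 3′ on the strand of the gene. Capitals mark motif matches. Polr2a (chr11:69758634-69758883, minus strand) has 3 GC boxes, which begin 93, 70 and 55 bases before the start, and TATAAA 33 bases before it. Polr3g (chr13:81711014-81711263, minus strand) has a GC box 137 bases and an ETS core 28 bases before the start, both on the opposite strand. Polr3gl (chr3:96594182-96594431, minus strand) has CACGTG 194 bases and an ETS core on the opposite strand 80 bases before the start. It also has CCAAT boxes 24 bases (on the opposite strand) and 6 bases (on the strand of the gene) before the start.
Polr2a: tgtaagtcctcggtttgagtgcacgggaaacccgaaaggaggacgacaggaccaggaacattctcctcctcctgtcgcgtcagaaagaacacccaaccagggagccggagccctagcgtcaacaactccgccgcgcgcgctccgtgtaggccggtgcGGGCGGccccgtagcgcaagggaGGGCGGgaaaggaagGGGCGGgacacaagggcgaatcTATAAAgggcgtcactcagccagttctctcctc
Polr3g: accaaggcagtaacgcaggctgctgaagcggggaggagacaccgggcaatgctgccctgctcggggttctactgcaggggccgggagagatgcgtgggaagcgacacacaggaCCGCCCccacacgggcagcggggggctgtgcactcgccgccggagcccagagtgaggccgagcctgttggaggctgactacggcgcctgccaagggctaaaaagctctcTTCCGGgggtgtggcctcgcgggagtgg
Polr3gl: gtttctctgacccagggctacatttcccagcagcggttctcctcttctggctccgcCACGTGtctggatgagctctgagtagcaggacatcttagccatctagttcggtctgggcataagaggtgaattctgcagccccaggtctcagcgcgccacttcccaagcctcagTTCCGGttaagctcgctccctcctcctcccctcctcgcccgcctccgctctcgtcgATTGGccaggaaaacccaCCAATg

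All 58 genes were detected in both libraries at 1 TPM or more (a level corrected for transcript length and library size), against 9627 of 21461 nuclear protein-coding genes (44.9%). The genes together took 55328 and 55968 expected counts in replicates 1 and 2, or 0.191% and 0.212% of each library. Their median level was 15.4 and 18.0 TPM, and the median of the 9627 detected coding genes was 13.2 and 13.5 TPM. Levels spanned 2.88 to 74.6 TPM in replicate 1 and 1.37 to 75.8 TPM in replicate 2, so subunits that assemble together did not share 1 transcript level. By count, 19 of 28 polymerase genes and 8 of 30 Mediator genes exceeded the median of detected genes in both libraries, as did 4154 of the 9627 detected genes. The order of the complexes by median TPM is a description without a test.

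**Figure D1:**
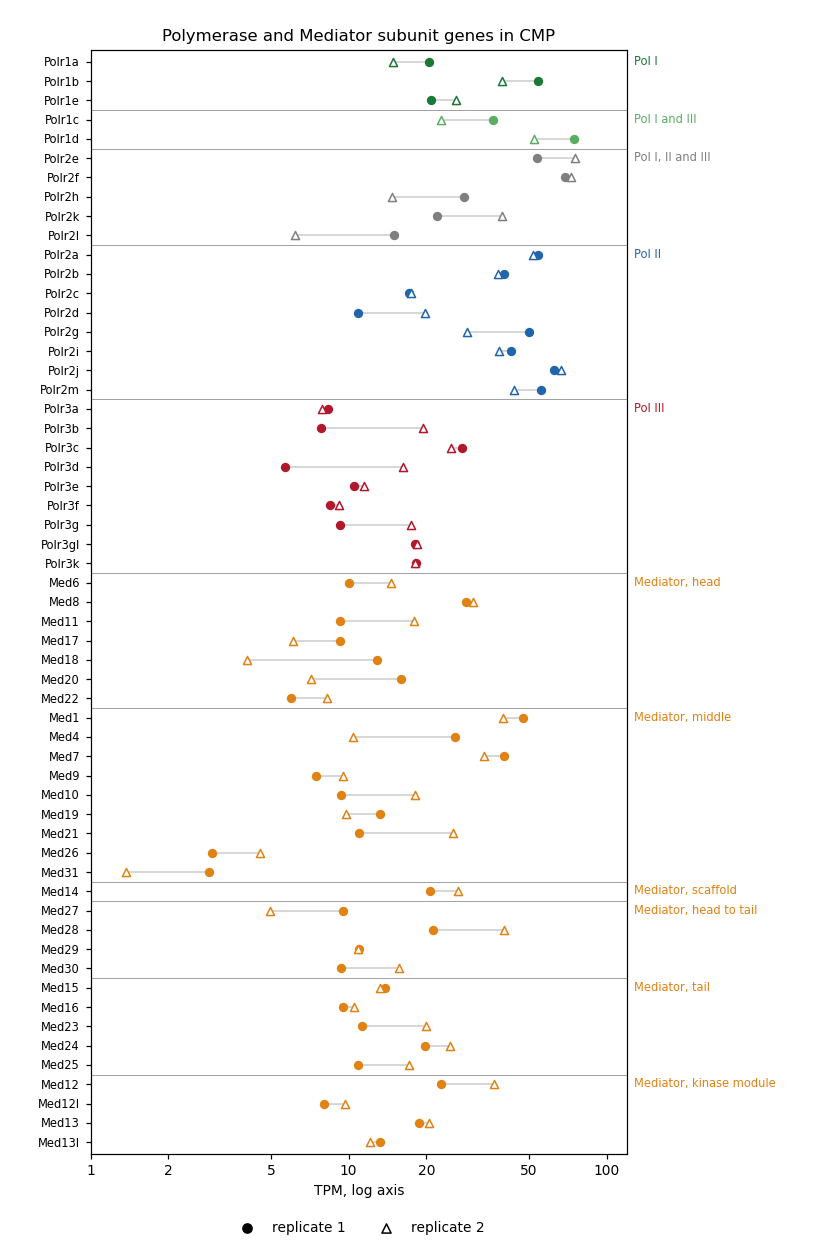
TPM on a log axis of 57 of the 58 genes in replicate 1 (filled circles) and replicate 2 (open triangles), joined by a line and ordered by complex and Mediator module. Most Pol II genes sit between 17 and 67 TPM, most Pol III genes below 20 TPM, and Med31 and Med26 at the bottom of the range.

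Of the Pol I genes, Polr1a, the catalytic subunit (chr6:71909053-71984935, plus strand, on GRCm38 like all gene positions here), had 20.4 TPM in replicate 1 and 14.8 TPM in replicate 2, or 17.6 ± 3.99 TPM (SD, n = 2, as for each mean below). Polr1b, the second largest subunit, had 54.0 and 39.5 TPM, 2.65-fold and 2.67-fold above Polr1a over all transcripts. On protein-coding transcripts alone, a sum added after seeing the data, Polr1b had 22.4 and 26.3 TPM and was 1.10-fold and 1.78-fold above Polr1a. Polr1e, a subunit of the dissociable pair that helps initiation and elongation, had 20.9 and 26.2 TPM. The median of the 3 genes was 20.9 TPM in replicate 1 and 26.2 TPM in replicate 2. Another 3 Pol I subunits carry older symbols in the annotation, so the rule did not reach them. Twistnb (Polr1f) had 9.85 and 12.5 TPM, Cd3eap (Polr1g) 18.0 and 11.7 TPM, and Znrd1 (Polr1h) 51.8 and 54.4 TPM. The 6 Pol I genes thus ranged from under the median of detected genes to several times above it.

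Among the shared subunits, Polr1c and Polr1d form the assembly platform of both Pol I and Pol III. Polr1d had 74.6 and 52.1 TPM (63.3 ± 15.9), and Polr1c had 36.2 and 22.8 TPM (29.5 ± 9.45); both were higher in replicate 1. Of the 5 subunits common to all polymerases, Polr2f was the most even between libraries, at 69.1 and 72.5 TPM (70.8 ± 2.41), and Polr2e was at 53.9 and 75.8 TPM (64.8 ± 15.5). Over all transcripts these 2 genes had the highest mean levels of all 58. On protein-coding transcripts alone Polr2e had 36.2 and 57.6 TPM, below the Pol II subunit Polr2j (62.3 and 66.7 TPM) in both libraries. Polr2k, a small zinc-binding subunit, had 22.0 and 39.3 TPM and was higher in replicate 2. Polr2h had 28.1 and 14.8 TPM, and Polr2l, the other small zinc-binding subunit, had 15.0 and 6.22 TPM. Both were higher in replicate 1, and Polr2l was the lowest shared subunit in both libraries. Within this set of obligate partners the highest gene exceeded the lowest 4.62-fold in replicate 1 and 12.2-fold in replicate 2.

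The 8 Pol II genes had the highest median of any single polymerase, 46.3 TPM in replicate 1 and 38.2 TPM in replicate 2, with 7 of the 8 above the median of detected genes in both. Polr2a (chr11:69733997-69758637, minus strand), which carries the catalytic centre and the heptad-repeat tail, had 54.1 and 51.8 TPM (53.0 ± 1.65) from 7170 and 6966 counts. Polr2b, the second largest subunit, had 40.2 and 38 TPM (39.1 ± 1.52), so the 2 large subunits differed little between libraries. Polr2j, part of the assembly platform with Polr2c, had 62.3 and 66.7 TPM (64.5 ± 3.13), whereas its partner Polr2c had 17.1 and 17.5 TPM (17.3 ± 0.28). Both genes were steady across libraries, with ranges that did not overlap. Polr2m, which encodes the Pol II-associated protein Gdown1, had 55.8 and 43.6 TPM. The stalk pair Polr2d and Polr2g leaned in opposite directions: Polr2d had 10.9 and 19.8 TPM, and Polr2g had 49.97 and 28.7 TPM. Polr2g stayed above Polr2d in both libraries. Polr2i, a subunit tied to start-site choice and transcript cleavage in yeast, had 42.5 and 38.3 TPM.

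The 10 Pol III genes had a median of 8.86 TPM in replicate 1 and 16.8 TPM in replicate 2, and 3 of the 10 exceeded the median of detected genes in both. Polr3a, the catalytic subunit (chr14:24448696-24487058, minus strand), had 8.34 and 7.85 TPM (8.10 ± 0.35), the lowest mean of the 10 over all transcripts. On protein-coding transcripts alone Polr3f (1.29 and 5.23 TPM) and Polr3g (1.36 and 3.20 TPM) were lower in both libraries. Polr3b, the second largest subunit, had 7.83 and 19.5 TPM (13.7 ± 8.23), so its relation to Polr3a was near parity in replicate 1 and well above it in replicate 2. Polr3c, a subunit of the trimer that opens the promoter, was the highest at 27.5 and 24.8 TPM (26.2 ± 1.87). The other members of that trimer were Polr3f, at 8.47 and 9.18 TPM, and Polr3g or its paralog Polr3gl. Polr3gl and Polr3k, the subunit used in termination and cleavage, had 18.0 and 18.5 TPM and 18.2 and 18.1 TPM, and each differed by less than 1 TPM between libraries. Polr3d and Polr3e form the dimer related to an initiation factor of Pol II. Polr3d had 5.64 and 16.2 TPM and was far higher in replicate 2, whereas Polr3e had 10.5 and 11.45 TPM.

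The 3 catalytic subunits were ordered Polr2a, Polr1a, Polr3a in both libraries. The log2 ratio of TPM plus 1 was -1.36 and -1.74 for Polr1a over Polr2a (-1.55 ± 0.27) and -2.56 and -2.58 for Polr3a over Polr2a (-2.57 ± 0.01). Neighbours in that order did not overlap between libraries.

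The 30 Mediator genes had a median of 11.1 TPM in replicate 1 and 14.0 TPM in replicate 2, and 8 of them exceeded the median of detected genes in both. In the middle module, Med1, the subunit bound by nuclear receptors, had the highest Mediator mean over all transcripts, with 47.3 and 39.6 TPM (43.5 ± 5.42), and Med7 followed with 40.1 and 33.3 TPM (36.7 ± 4.76). In replicate 2 Med28 was as high (39.9 TPM), and on protein-coding transcripts Med7 (40.1 and 33.3 TPM) exceeded Med1 (24.6 and 29.7 TPM) in both libraries. The module also held, over all transcripts, the 2 genes with the lowest means of the 58. Med31 had 2.88 and 1.37 TPM from 60 and 28 counts. Med26, the subunit that recruits elongation factors, had 2.96 and 4.54 TPM from 176 and 268 counts. Levels within 1 module therefore spread 16.4-fold in replicate 1 and 28.9-fold in replicate 2. On protein-coding transcripts alone Polr3g, of Pol III, had 1.36 and 3.20 TPM, below Med26 in both libraries. The middle subunits Med4 (25.9 and 10.4 TPM) and Med21 (11.0 and 25.5 TPM) leaned to opposite libraries, and Med9, Med10 and Med19 lay between 7.46 and 18.1 TPM.

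The head module had a median of 10.02 and 8.27 TPM. Over all transcripts Med8 was the highest head gene, at 28.6 and 30.3 TPM, and Med17, the central head subunit, had 9.25 and 6.11 TPM. On protein-coding transcripts alone Med8 had 9.44 and 24.0 TPM, and in replicate 1 Med18 (12.9 TPM) and Med20 (13.3 TPM) were above it. Med18 and Med20, which form the movable jaw, had 12.9 and 4.04 TPM and 15.9 and 7.14 TPM, and both were higher in replicate 1. Med6, Med11 and Med22 lay between 5.98 and 17.9 TPM, each higher in replicate 2. Med14, the backbone, had 20.7 and 26.6 TPM (23.6 ± 4.21). Of the subunits between head and tail, Med28 had 21.2 and 39.9 TPM, Med27 9.52 and 4.94 TPM, Med29 11.0 and 10.9 TPM and Med30 9.32 and 15.7 TPM. The tail subunits, through which many activators bind, had a median of 11.3 and 17.1 TPM. Med24 was the highest tail gene over all transcripts, at 19.7 and 24.7 TPM, and Med16 the lowest, at 9.52 and 10.5 TPM. Med15 (13.9 and 13.3 TPM), Med23 (11.3 and 19.9 TPM) and Med25 (10.9 and 17.1 TPM) lay between. On protein-coding transcripts alone Med24 had 13.6 and 10.8 TPM, below Med15 (13.9 and 13.25 TPM) in both libraries.

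In the kinase module, Med12 (chrX:101274030-101297465, plus strand), which activates the kinase, had 22.7 and 36.6 TPM, and its paralog Med12l (chr3:59005825-59318682, plus strand) had 8.02 and 9.71 TPM. Med13 (chr11:86267033-86357602, minus strand), which joins the module to Mediator, had 18.8 and 20.6 TPM, and its paralog Med13l (chr5:118560679-118765438, plus strand) 13.2 and 12.1 TPM. The kinases Cdk8 (19.9 and 15.9 TPM) and Cdk19 (11.3 and 12.7 TPM) and their cyclin Ccnc (8.15 and 3.98 TPM) lie outside the symbol rule. Every gene of the module, both paralogs of each pair included, was thus above 1 TPM in CMP. By TPM over all transcripts, the log2 ratio was -1.39 and -1.81 for Med12l over Med12 (-1.60 ± 0.30), -0.47 and -0.71 for Med13l over Med13 (-0.59 ± 0.17), and -0.77 and -0.30 for Cdk19 over Cdk8 (-0.53 ± 0.33). Each ratio was below 0 in both libraries, but each changed by more than its SD when protein-coding transcripts alone were summed: the means became -0.31, -0.21 and 0.01, and Med12l over Med12 lay on both sides of 0 (-0.65 and 0.03). By these sums Med12l and Med12 could not be ranked, and neither could Cdk19 and Cdk8 (-0.28 and 0.30).

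Polr3g (chr13:81673843-81711013, minus strand) and Polr3gl (chr3:96577872-96594181, minus strand) encode alternative versions of 1 Pol III subunit. In human cells POLR3G is known for high expression in pluripotent and many cancer cells, and POLR3GL is expressed widely. Over all transcripts Polr3g had 9.24 and 17.4 TPM and Polr3gl 18.0 and 18.5 TPM, a log2 ratio of -0.89 and -0.08 (-0.49 ± 0.57). On protein-coding transcripts alone Polr3g had 1.36 and 3.20 TPM and Polr3gl 18.0 and 18.5 TPM, and the ratio was -3.01 and -2.21 (-2.61 ± 0.56). The paralogs were hardly apart in replicate 2 by the first measure, and far apart in both libraries by the second.

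**Figure D2:**
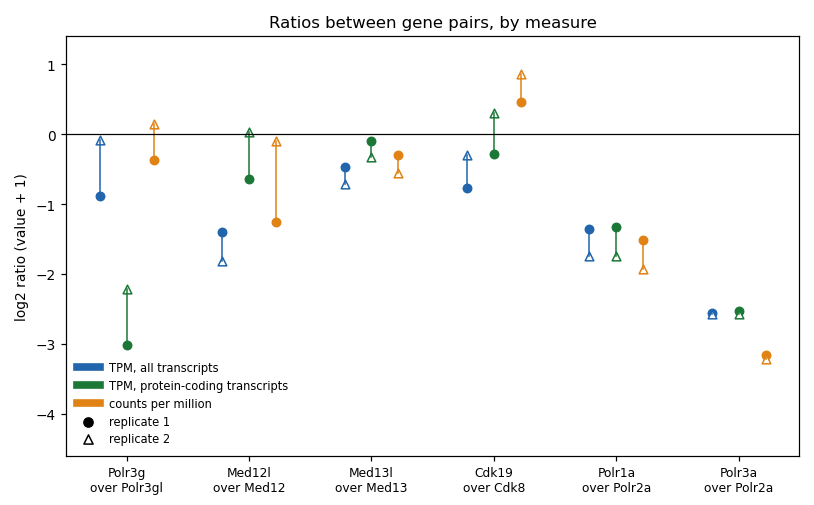
Log2 ratios (value plus 1) of the first over the second gene of 6 pairs in replicate 1 (filled circles) and replicate 2 (open triangles), by TPM over all transcripts, TPM over protein-coding transcripts, and CPM (counts scaled to the library total, not corrected for length). Polr3g over Polr3gl drops to -3.01 and -2.21 on protein-coding transcripts, while the ratios of Polr1a and Polr3a to Polr2a move little between the TPM measures.

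Much of the detail of these genes lay in their transcripts, each of which the annotation labels as protein-coding or as a non-coding type such as retained intron or processed transcript. Of the 58 genes, 29 had both kinds of transcript and, in each library, at least 50 counts. In them, protein-coding transcripts held a median of 75.8% and 77.6% of the gene's TPM, against 74.6% and 76.6% over 5954 coding genes chosen alike. The share was under 50% in 5 of the 29 genes in replicate 1 and in 6 in replicate 2, or 17.2% and 20.7%, beside 28.3% and 25.2% of all such genes. Polr3g alone was under 50% in both libraries, at 14.7% and 18.4%. Of its counts, protein-coding transcripts held 25.1% and 39.2%. Its leading transcript was the retained-intron form Polr3g-205 in replicate 1 (42.8% of the gene's TPM; 26.01% in replicate 2) and the processed transcript Polr3g-203 in replicate 2 (2.45% in replicate 1; 40.3% in replicate 2). Over all such genes 16.2% were under 50% in both libraries. Polr2a had 97.6% and 99.7% on protein-coding transcripts.

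In some of the other genes the share moved between libraries, and in others, such as Med13 (75.7% and 75.4%), it hardly did. It differed by more than 20 percentage points in 11 of the 29 genes (37.9%), near the 34.6% of all such genes. Polr3f had 15.2% on protein-coding transcripts in replicate 1 and 57.0% in replicate 2, Med6 28.04% and 60.4%, and Med8 33.0% and 79.3%. The shift ran the other way in Med28 (95.8% and 39.8%) and Med12 (57.9% and 25.9%). In Med6 and Med8 a single transcript carried most of the move: the 487-base retained-intron form Med6-203 held 72.0% and 35.4% of Med6, and the 538-base processed transcript Med8-205 held 60.6% and 0% of Med8. In Med12 the 802-base retained-intron form Med12-209 held 0.33% in replicate 1 and 33.4% in replicate 2, from 1 and 160 counts, whereas the full-length Med12-204, of 6940 bases, held 38.7% and 16.5% from 1226 and 840 counts. Where they were counted, these short transcripts held a larger share of their gene's TPM than of its counts.

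**Figure D3:**
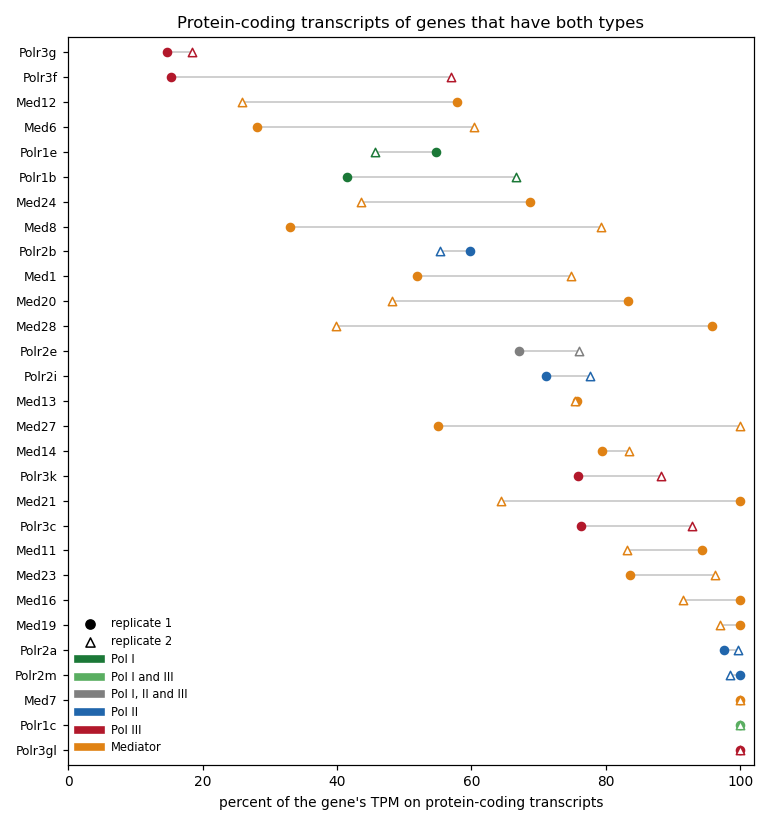
Percent of a gene's TPM on protein-coding transcripts in replicate 1 (filled circles) and replicate 2 (open triangles), for the 29 genes with both kinds of transcript and at least 50 counts in each library, ordered by their mean. Polr3g is low in both libraries, and Med28, Med8, Med27, Polr3f and Med21 have wide gaps.

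The transcript with the highest TPM was the same in both libraries in 25 of the 39 genes with several transcripts and at least 50 counts in each library (64.1%), and in 4272 of 7175 coding genes (59.5%). It differed in Polr1b, Polr1e, Polr2k, Polr3c, Polr3f, Polr3g, Med1, Med6, Med8, Med12, Med12l, Med23, Med27 and Med28. In Polr2k, Polr3c, Med12l and Med23 both leading forms were protein-coding. Polr2k-201 held 60.1% of Polr2k in replicate 1 and 0% in replicate 2, where Polr2k-202 held all of it. In Med12l the 2295-base form Med12l-201 led in replicate 1 with 55.9% (15.3% in replicate 2), and the 10159-base form Med12l-202 led in replicate 2 with 63.3% (36.1% in replicate 1). In Polr1b, Med1 and Med27 a processed transcript led in replicate 1 (45.4%, 28.1% and 45.0% of the gene's TPM) and a protein-coding one in replicate 2 (64.3%, 40.0% and 87.6%); in Polr1e and Med28 a processed transcript led in replicate 2 (54.3% and 39.4%). Polr3c was led by Polr3c-201 in replicate 1 (56.3%) and by Polr3c-205 in replicate 2 (37.1%), and Med23 by Med23-202 (61.1%) and Med23-201 (38.7%).

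The libraries were compared by a two-sided exact binomial test of each gene's rounded count, with libraries scaled by TMM in edgeR and p-values adjusted over 13616 genes, which measures these libraries against counting error and not conditions or animals. At an adjusted p of 0.05 it called 44 of the 58 genes different, or 75.9%, beside 78.2% of all genes tested; 21 were higher in replicate 1 (background 37.6%) and 23 in replicate 2 (background 40.6%). A share this near the background is no result about these genes. Scaled by total counts instead, 13 of the 58 were higher in replicate 1 and 32 in replicate 2, and among all genes 3632 and 7158. With a fold of 2 or more besides, 9 of the 58 passed (15.5%), beside 30% of all genes tested. Of these 5 were higher in replicate 1 (background 12.7%) and 4 in replicate 2 (background 17.3%); by total counts these were 3 and 9 of the 58, and 1448 and 2784 of all 13616 genes. With the spread between the libraries taken as replicate spread (edgeR exact test, common dispersion 0.61), 0 of the 58 genes and 0% of all genes were called at an adjusted p of 0.05. By that test 0 of the 58 and 1468 of 13616 genes had an unadjusted p under 0.05. Its dispersion came from the same 2 libraries that it compared, so it could hardly call a gene and its lack of calls decides nothing. Every difference named next is one between 2 libraries beyond counting error, and no more.

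Of the 5 genes higher in replicate 1, 3 belong to Mediator besides the shared polymerase subunits Polr2h and Polr2l. Med4, in the middle module, had 617 counts in replicate 1 and 244 in replicate 2 (log2 ratio 1.36, adjusted p = 2.3e-38 by the exact binomial test). Polr2l had 463 and 190 counts (1.31), Med18 284 and 123 (1.23), Med31 60 and 28 (1.11) and Polr2h 464 and 236 (1.00). The 4 genes higher in replicate 2 included 3 of Pol III; by total counts Pol III gave 3 of 9, the others being Med6, Med10, Med11, Med12l, Med21 and Polr2d, and Med31 and Polr2h no longer passed 2-fold in replicate 1. Polr3d had 217 counts in replicate 1 and 617 in replicate 2 (-1.48, adjusted p = 3.19e-42 by the exact binomial test), Polr3b 753 and 1863 (-1.28), Polr3f 210 and 438 (-1.03), and the middle-module gene Med21 151 and 317 (-1.04). Under TMM scaling the other Pol III genes did not all lean that way. Polr3c was called higher in replicate 1 (1000 and 810 counts, 0.33), and Polr3a, Polr3e, Polr3gl and Polr3k were not called. Polr3g did lean to replicate 2, by less than 2-fold (-0.55). By total counts Polr3c (0.13) and Polr3a (-0.08) were not called. Polr3e (-0.30), Polr3gl (-0.21), Polr3k (-0.34) and Polr3g (-0.76) were then called higher in replicate 2. Megakaryocyte markers were higher and erythroid markers lower in replicate 2, as given above; their part in these differences was not tested.

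**Figure D4:**
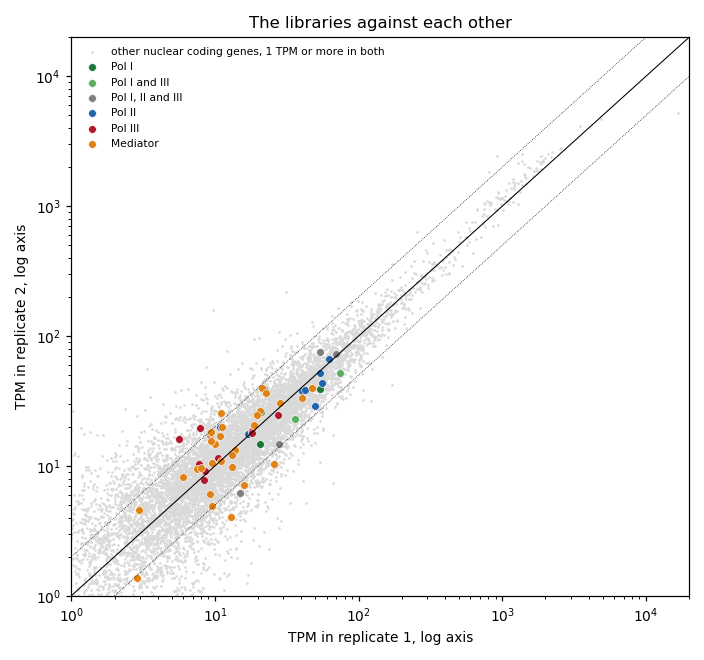
TPM in replicate 1 against TPM in replicate 2, log axes, for the 58 genes (coloured by complex) and other nuclear protein-coding genes at 1 TPM or more in both (grey); the solid line is equality and the dotted lines mark 2-fold. Most of the 58 genes lie inside the dotted lines; Polr3b and Polr3d are among those above them and Med18 and Med4 among those below.

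Across the 58 genes the 2 libraries correlated with Pearson's r 0.81 and Spearman's rho 0.79 on log2 of TPM plus 1, and across the 9627 detected genes with 0.91 and 0.88. These are descriptions over genes, which are not independent replicates and which cover a narrower range of levels in the smaller set. The median size of the log2 ratio between libraries was 0.42 over the 58 genes, as TPM plus 1, and 0.38 over the detected genes.

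A gene's TPM divides its count by a mean transcript length estimated anew in each library and is scaled to another total than the tested counts, so counts and TPM can point to different libraries. They did so in 9 of the 58 genes: Polr1b, Polr1e, Polr2c, Polr2f, Polr2j, Polr3k, Med1, Med12 and Med24. The ratios lay more than 0.5 log2 units apart in Polr1e, Polr3f, Med12, Med12l, Med24, Med27 and Med28. Med12 had 2260 counts in replicate 1 and 1886 in replicate 2, higher in replicate 1 by 0.29 log2 units, while by TPM it was lower by 0.67; its mean length was 4988 bases in replicate 1 and 2673 in replicate 2. Polr3f was lower by 1.03 log2 units in replicate 1 by counts and by 0.10 by TPM, with mean lengths of 1352 and 2490 bases. In the 18 genes with a single annotated transcript the measures lay at most 0.16 log2 units apart. Adding 1 to TPM also shrinks ratios between low levels by construction. Med31, with a mean length of 1161 bases in both libraries, had 1.11 by counts and 0.71 by TPM plus 1.

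**Figure D5:**
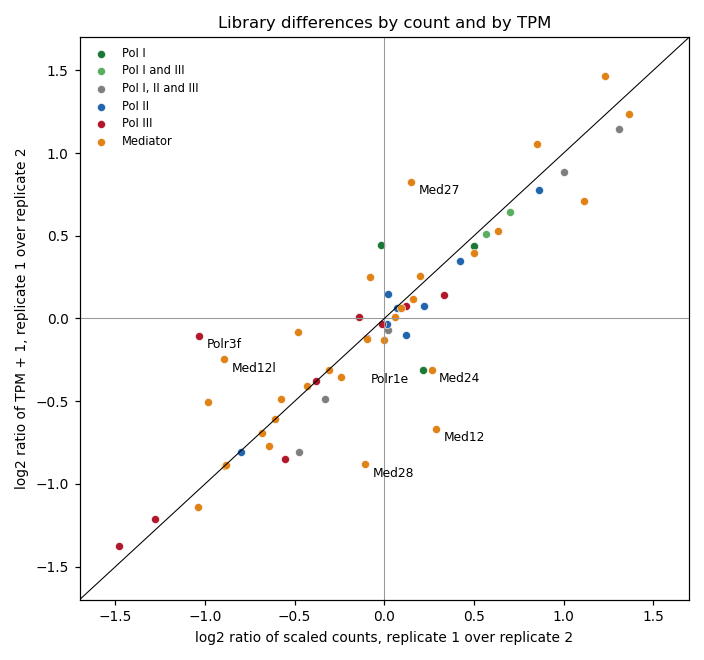
Log2 ratio of replicate 1 over replicate 2 by TMM-scaled counts (x axis) and by TPM plus 1 (y axis) for the 58 genes, coloured by complex; the diagonal marks equal ratios. Polr3f, Med12l and Med27 lie above the diagonal and Med28, Med12, Med24 and Polr1e below it, each by more than 0.5 log2 units.

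The machinery around the polymerases was detected throughout. Of the Pol I initiation and release factors, 7 of 7 matched genes were detected, with medians of 9.39 and 9.14 TPM; the selectivity-factor gene Taf1d was highest (66.4 and 50.2 TPM) and Rrn3, the bridge between Pol I and its promoter factors, had 9.39 and 8.95 TPM. All 31 Pol II general factor genes were detected, with medians of 13.4 and 14.8 TPM, and means ran from Taf7 (2.36 and 4.26 TPM) to Taf10 (100.4 and 113.7 TPM). The 20 pausing and elongation genes had medians of 20.9 and 21.6 TPM, with the pausing factor subunit Supt4a highest (68.8 and 74.1 TPM) and Hexim1, an inhibitor of the Cdk9 kinase, lowest (4.19 and 2.21 TPM). The 15 matched Pol III factor genes had medians of 13.1 and 20.0 TPM; Maf1, the Pol III repressor, had 35.6 and 41.2 TPM, above the median Pol III subunit in both libraries, and Brf1, part of the initiation factor, had 13.1 and 21.7 TPM. Polrmt, the mitochondrial RNA polymerase, had 20.0 and 23.5 TPM.

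Reads shared with other genes touched few of the 58. The deposited posterior SD of the count was above 0 in 7 genes, at most 12.7 reads (Polr2l, of 463 in replicate 1) and at most 4.41% of a count. A further limit is overlap: 23 of the 58 genes overlap another gene annotated as protein-coding, lincRNA, antisense or processed transcript, the only types searched. All overlaps found were on the opposite strand except Med20 with Gm20517 and Med12 with Gm21986. The sources used here do not say whether counting used strand. The values of the 23 genes are uncertain to that extent, those of Med20 and Med12 even if strand was used.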

How the data were processed

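Total RNA of 2 CMP libraries was analysed from the deposited gene and transcript tables (mm10, GENCODE M4, per the file headers and labels). The deposited expected counts, which divide reads shared between features, were rounded for tests. TPM values as deposited correct for length and library size over every entry, tRNA and spike-ins among them. The deposited percent values give each transcript's share of its gene's TPM. Deposited FPKM values were not used. Aligner and quantifier were not given in the sources used here.

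Unversioned identifiers were looked up in GENCODE M21, also on GRCm38 (42462 of 43346 mouse genes); 26345 tRNA, spike-in and phiX entries were kept out of gene counts. Depth (28916263 and 26426710 counts) puts 0 counts at up to 0.104 and 0.114 CPM (3 counts), counting error only. Log ratios used TPM plus 1. Libraries were compared for genes with 10 or more counts in either, with Benjamini-Hochberg adjustment, in edgeR 4.0.16 and DESeq2 1.42.0 (size factors only) under R 4.3.3; the rest used Python 3.11.15. On simulated data with counting noise alone that test, run on 13616 genes, called 69% of 100 set to differ 1.5-fold, 73% of 100 set to differ 2-fold, and 3 of 13416 others. P-values of the binomial test measure the difference between these 2 libraries against counting error only, and that difference may be technical.

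Members, lists and tests were chosen with earlier results of these data known. Values are given per library for the large subunits, the extremes of each complex, paralogs, and genes that differed 2-fold or in leading transcript; for completeness almost all others were added after their values were seen, as were Pol I subunits under older symbols and examples from the wider lists. Planned protein sequences were not used; promoters, whose motifs were chosen later, took their place. Alternatives were other TPM thresholds, posterior mean TPM, TPM rescaled over coding genes, other scalings and count minimums, a pseudocount of 0.1, no length correction, protein-coding transcripts alone, and each library alone. Ptrf and Gtf3c2 were not matched. The separate values of 1 gene are not reported here.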

Additional observations from a re-analysis of the deposited data

How the results depend on the processing

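Detection of all 58 genes was the result at a threshold of 1 TPM; of 24 recomputed counts of members, 17 stayed within 1.5 times and 7 did not. Members called different numbered 0 by the edgeR exact test (0 higher in replicate 1, 0 in replicate 2) and 9 with a fold of 2 or more (5 and 4), and members called higher in replicate 1 numbered 13 under total-count scaling. Total-count scaling shifted every ratio by 0.20 log2 units, moving the median of all genes to -0.23, and 11 ratios of the 58 genes changed sign. Of these, 5 were called by at least one scaling: Med13l to -0.0434, Med7 to -0.0034, Polr2a to -0.13, Polr2c to -0.19 and Polr2f to -0.18. Of the other recomputed ratios of single genes, 171 kept their side of the threshold (not always their sign when uncalled), 50 were lost (44 by the edgeR exact test) and 6 gained. The loss of those 44 is no result, since that test took its dispersion from the same 2 libraries. Rescaling TPM over nuclear protein-coding genes, which enlarges every value by construction, gave mean medians of 61.03 (Pol I), 121 (Pol I and III), 87.3 (all polymerases), 110 (Pol II), 33.1 (Pol III) and 32.5 TPM (Mediator). With protein-coding transcripts alone, an alternative chosen after seeing the data, they were 17.6 for Pol I and 34.7 TPM for Pol II. On protein-coding transcripts the pair ratios became -2.61 (Polr3g over Polr3gl), -0.31 (Med12l over Med12), -0.21 (Med13l over Med13), 0.0087 (Cdk19 over Cdk8) and -2.55 (Polr3a over Polr2a). Without length correction they became -0.68 (Med12l over Med12), 0.66 (Cdk19 over Cdk8) and -3.19 (Polr3a over Polr2a), and with a pseudocount of 0.1 Polr3a over Polr2a became -2.70; causes beyond the construction were not tested. Values from either library alone lie by construction within the spread of 2 and test no stability. No paired analysis was possible because there is 1 group. Depth limits the lowest member, Med31, which had 28 counts in replicate 2.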
